A study of Rattus norvegicus with 9 samples.

Results

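Schwann cell myelin genes were examined in bulk RNA sequencing of rat spinal cord to describe how RNA of the kind made in nerve roots differed among samples. The 9 genes Pmp22, Pmp2, Prx, Egr2, Ncmap, Dhh, Scn7a, Mlip and Drp2 were found by their names in a table of 34890 loci, where each matched 1 locus. The table gives expression as TPM, a transcript level scaled for gene length and to the same total in every sample. Wild type male Sprague Dawley rats were used in all groups. By the methods of the study, tissue was taken from the ipsilateral side of segments L3 to L6 of the cord. The 3 groups had 3 samples each. Rats of the JA group had a sham operation and received saline by mouth. In the SNI group the tibial and common peroneal branches of the sciatic nerve were tied and cut, the sural branch was spared, and saline was given. Rats of the PLM group had the same injury and received paeoniflorin at 20.65 mg/ml together with liquiritin at 3.98 mg/ml, the label of replicate 1. Labels of replicates 2 and 3 read 3.99 and 3.100 mg/ml for liquiritin. The methods describe a single dose for the group, equal to that of replicate 1, and the samples were treated as 1 dose. The study asked whether these plant compounds act on pain after nerve injury. Here the levels were compared among samples and between groups. JA replicate 3 stood apart from the other sham samples in these genes and in several other lists, so the group comparisons are also given without it and without each other sample.

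Axons in the body's nerves are wrapped in myelin by Schwann cells, whereas axons inside the cord are wrapped by oligodendrocytes. The border lies where the dorsal and ventral roots join the cord, so Schwann cells are found in roots and only rarely within healthy cord. EGR2 and SOX10 are the transcription factors known to switch on the myelin program of Schwann cells. PMP22 sits in compact myelin, and PMP2 is a fatty acid binding protein of the same sheath. NCMAP is a membrane protein of the uncompacted part of the sheath. Periaxin (PRX) and DRP2 join in a complex with dystroglycan that ties the outer Schwann cell membrane to the basal lamina. Desert hedgehog (DHH) is the Schwann cell signal that organises the surrounding perineurium. SCN7A is a sodium channel relative found in Schwann cells that do not make myelin and in some other glia, and MLIP was named for its binding to lamin A/C. Bulk RNA does not separate cells, so fewer Schwann cells and less RNA per Schwann cell cannot be told apart in any value given here.

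Promoter sequences are shown first because EGR2 is itself a member. The order of samples by Egr2 had a Spearman's rho of 0.85 with the mean of the 9 genes, which includes it. Scn7a had 0.75 and the other members 0.93 to 1.0. Whether EGR2 acts on the members was not tested. The table of RefSeq promoters used here (GRCr8) had an entry for 7 of the 9 genes, with 8 promoters in all since Drp2 has 2. Pmp2 and Mlip had no match in that table. The 250 bases before the start were searched on both strands for letters bound by EGR factors (the longer GCGTGGGCG or GCGGGGGCG or the shorter GTGGGNG, which can lie inside GCGTGGGCG) and by SOX factors (ACAAAG or ACAATG or AACAAT). EGR letters were present in 5 of the 8 promoters, those of Prx, Ncmap, Dhh, Scn7a and 1 of the 2 of Drp2, and in 27.2% of all 33469 promoters of this length. The number was also 5 when the first 50 transcribed bases were added to the window. SOX letters were present in 1 of the 8, the other Drp2 promoter, and in 30.1% of all promoters. The longer letters GCGTGGGCG occurred in the Scn7a promoter alone among the members and in 0.478% of all promoters. These are matches of letters, and binding was not measured. Prx and Ncmap are printed because their levels were the most alike of any pair of members, and Scn7a because it holds the longer match. They lie on chr1:91914171-91914420 (plus strand), chr5:152902415-152902664 (minus strand) and chr3:71846285-71846534 (minus strand), each written 5′ to 3′ along its gene up to the base before the start, with the EGR letters of either strand in capitals.
Prx: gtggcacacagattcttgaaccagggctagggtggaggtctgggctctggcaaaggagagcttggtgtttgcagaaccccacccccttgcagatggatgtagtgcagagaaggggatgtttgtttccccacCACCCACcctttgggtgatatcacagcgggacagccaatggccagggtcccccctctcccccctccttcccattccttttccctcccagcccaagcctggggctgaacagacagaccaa
Ncmap: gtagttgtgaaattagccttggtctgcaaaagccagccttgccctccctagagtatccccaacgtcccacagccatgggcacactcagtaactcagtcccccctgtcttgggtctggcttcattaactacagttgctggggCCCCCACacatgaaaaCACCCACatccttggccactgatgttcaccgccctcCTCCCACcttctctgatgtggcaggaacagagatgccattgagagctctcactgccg
Scn7a: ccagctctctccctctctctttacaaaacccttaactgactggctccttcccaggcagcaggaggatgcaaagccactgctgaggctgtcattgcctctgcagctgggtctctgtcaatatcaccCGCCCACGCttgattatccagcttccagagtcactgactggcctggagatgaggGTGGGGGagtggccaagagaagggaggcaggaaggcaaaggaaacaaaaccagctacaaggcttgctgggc
In Prx the match lay 119 to 113 bases before the start. Ncmap had 3 matches, the nearest 57 to 51 bases before the start.

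Among the members, the transcription factor and the secreted signal were low. Egr2 was listed at 0.62, 0.12 and 3.96 TPM in JA replicates 1, 2 and 3, at 0.55, 2.88 and 2.05 TPM in SNI, and at 0.38, 0.33 and 4.22 TPM in PLM. Each group held at least 1 sample under 1 TPM and at least 1 above 2 TPM, and the ranges of the 3 groups overlapped. The highest of the 9 samples was 35.2-fold above the lowest. Dhh, the secreted signal, had 2.06, 0.71 and 14.96 TPM in JA, 1.3, 9.44 and 2.55 TPM in SNI, and 0.64, 1.59 and 4.78 TPM in PLM. JA replicate 3 stood highest and PLM replicate 1 lowest, 23.4-fold apart.

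The compact myelin genes Pmp22 and Pmp2 had the highest mean levels per length. Pmp22 had 186.06, 64.96 and 1606.88 TPM in JA, 162.74, 923.28 and 382.41 TPM in SNI, and 94.74, 232.88 and 673.35 TPM in PLM. Within JA alone the highest sample was 24.7-fold above the lowest, against 5.67-fold within SNI and 7.11-fold within PLM. The group means were 619 ± 857 TPM for JA, 489 ± 391 TPM for SNI and 334 ± 302 TPM for PLM (SD over 3 samples), so for JA the SD was larger than the mean. Pmp2 had 13.54, 4.84 and 327.15 TPM in JA, 31.45, 134.93 and 47.11 TPM in SNI, and 12.18, 44.61 and 99.46 TPM in PLM. The same samples were highest in each group as for Pmp22, and JA replicates 2 and 3 were 67.6-fold apart. Ncmap, of the uncompacted sheath, had 13.03, 1.64 and 123.07 TPM in JA, 6.85, 70.27 and 27.53 TPM in SNI, and 3.73, 14.24 and 54.11 TPM in PLM. Its range over the 9 samples, 75.0-fold, lay between JA replicates 2 and 3.

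Periaxin and its partner differed in how widely they ranged. Prx had 13.91, 2.37 and 124.69 TPM in JA, 8.50, 73.65 and 27.39 TPM in SNI, and 4.54, 15.06 and 54.65 TPM in PLM, a 52.6-fold range. Drp2 had 7.72, 4.16 and 24.56 TPM in JA, 6.29, 20.50 and 11.00 TPM in SNI, and 3.11, 6.14 and 16.40 TPM in PLM, a 7.90-fold range. The order of samples was nearly shared, while the ratio of Prx to Drp2 went from 0.570 in JA replicate 2 to 5.08 in JA replicate 3. Prx and Ncmap kept close to each other, with a ratio between 0.995 and 1.45 in the 9 samples.

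Scn7a, which is not a myelin protein, was low throughout. It had 0.72, 0.81 and 3.72 TPM in JA, 0.44, 3.81 and 1.19 TPM in SNI, and 0.34, 0.47 and 4.45 TPM in PLM. It was the only member for which JA replicate 2 was not the lowest JA sample. Mlip had 5.08, 0.97 and 101.27 TPM in JA, 4.77, 38.71 and 10.71 TPM in SNI, and 3.51, 6.54 and 37.92 TPM in PLM. Its 104-fold range was the widest of the 9 members.

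**Figure D1:**
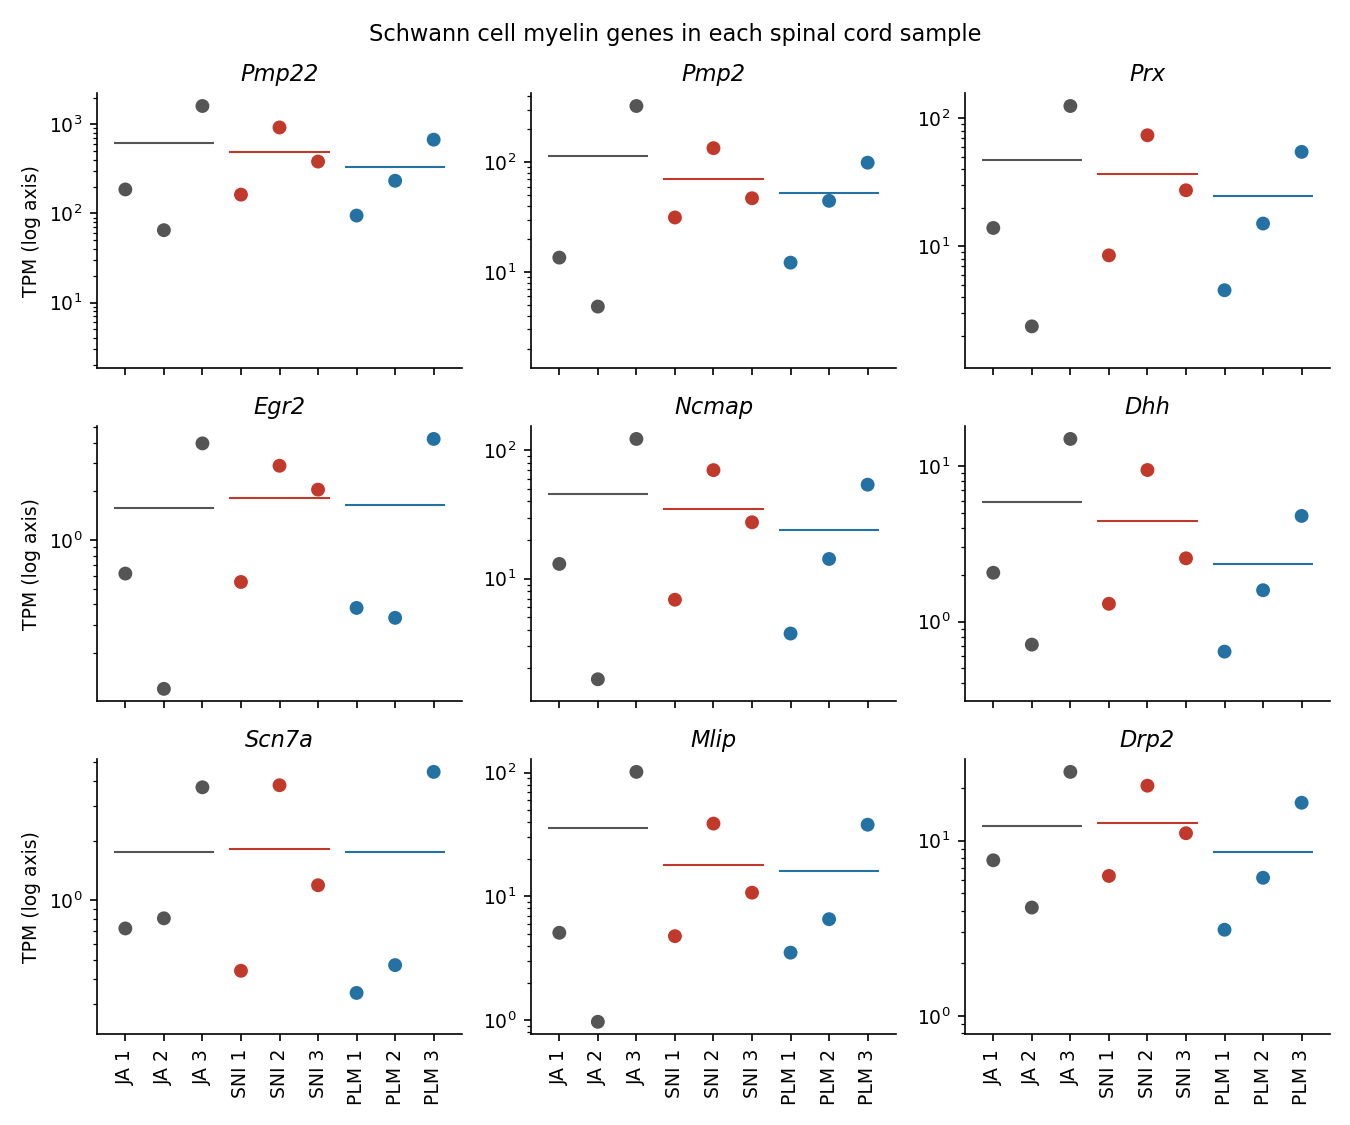
Level of each of the 9 genes (TPM, log axis) in the 9 samples, with 1 point for each sample and a line at the group mean. In every panel JA replicate 3, SNI replicate 2 and PLM replicate 3 are the highest points of their groups, and the ranges of the 3 groups overlap.

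The same samples ranked high or low for nearly every member. JA replicate 3, SNI replicate 2 and PLM replicate 3 were each the highest of their group for 9 of 9 members. SNI replicate 1 was the lowest SNI sample for 9 of 9, JA replicate 2 the lowest JA sample for 8 of 9 and PLM replicate 1 the lowest PLM sample for 8 of 9, the exceptions being Scn7a in JA and Egr2 in PLM. Of all 9 samples, JA replicate 3 was highest for 7 members and PLM replicate 3 for the other 2, Egr2 and Scn7a. By median rank the order from high to low was JA replicate 3, SNI replicate 2, PLM replicate 3, SNI replicate 3, PLM replicate 2, JA replicate 1, SNI replicate 1, PLM replicate 1 and JA replicate 2, so each group supplied 1 of the 3 highest and 1 of the 3 lowest samples. The summed level of the 9 genes was 243, 80.6 and 2330 TPM in JA, 223, 1277 and 512 TPM in SNI, and 123, 322 and 949 TPM in PLM. The mean of log2(TPM + 1) over the members had a group mean of 3.62 ± 2.05 for JA, 4.02 ± 1.13 for SNI and 3.50 ± 1.33 for PLM (SD over 3 samples). On this scale the highest and lowest samples lay 3.99 apart in JA, 2.26 in SNI and 2.62 in PLM, more than the largest distance between group means in each case. That span shrank most without the high sample of each group, to 1.23 without JA replicate 3, 1.02 without SNI replicate 2 and 0.95 without PLM replicate 3. It also shrank without the low sample, to 2.77 without JA replicate 2, 1.24 without SNI replicate 1 and 1.67 without PLM replicate 1.

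This spread within groups was wide for a gene of this table. With the groups' own means removed, the SD of log2(TPM + 1) was 2.12 for Ncmap, 2.10 for Mlip, 2.05 for Pmp2, 1.99 for Prx, 1.74 for Pmp22, 1.28 for Dhh, 1.02 for Drp2, 0.997 for Egr2 and 0.955 for Scn7a. The median was 0.165 over the 15503 loci that averaged 1 TPM or more. For Ncmap 0.503% of loci had a larger SD, and for Scn7a, the least variable member, 3.41% did.

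The members were also alike in their values. Over the 36 pairs of members, the Pearson correlation of log2(TPM + 1), taken over the 9 samples, had a median of 0.947 and ranged from 0.786 for Pmp2 and Scn7a to 0.999 for Prx and Ncmap. Spearman's rho had a median of 0.933. Deviations from group means gave a median r of 0.964, and without JA replicate 3 and SNI replicate 2, the 2 samples farthest from the median, the median r over 7 samples was 0.912, with a lowest value of 0.597. These are descriptions, because all genes were read from the same 9 libraries.

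Set against Mbp, a myelin gene that oligodendrocytes share and that varied little, the TPM of Pmp22 was 0.541%, 0.163% and 4.22% of that of Mbp in JA, 0.519%, 2.79% and 1.13% in SNI, and 0.252%, 0.633% and 1.92% in PLM. JA replicate 3 was again highest and JA replicate 2 lowest. Pmp22, which many cell types outside the nerve also express, did not fall in proportion to Prx. Its TPM was 12.3 to 20.9 times that of Prx in 8 samples and 27.4 times in JA replicate 2, the sample with the least Prx.

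Beyond the members, likeness was measured by Pearson's r with the mean of the 9 genes over the 9 samples. Of 15503 loci, 92 (0.593%) reached 0.9, among them 8 of the members, whose r is raised because each is part of that mean, and the median r of all loci was close to 0. The 10 genes most like the members were Cldn19, Slc36a2, Cdh1, Steap4, Myoc, Cnmd, Metrnl, Sfrp5, Itpr3 and Il16, with r between 0.980 and 0.997. Cldn19, a tight junction protein of the Schwann cell sheath, had 3.18, 0.98 and 35.51 TPM in JA, 2.70, 21.52 and 7.98 TPM in SNI, and 1.26, 3.91 and 14.61 TPM in PLM. Cdh1, the E-cadherin that holds together the loops of the Schwann cell membrane, ranged from 0.11 to 6.36 TPM. Myoc, which encodes the secreted protein myocilin, ranged from 1.11 to 117 TPM and Cnmd, which encodes the cartilage protein chondromodulin, from 0.46 to 87.2 TPM. Sfrp5, a secreted inhibitor of WNT signaling, ranged from 0.70 to 51.5 TPM. Metrnl, Itpr3 and Il16 had narrower ranges, from 2.00-fold to 3.74-fold. All 10 were highest in JA replicate 3, and 9 of the 10 were lowest in JA replicate 2, the exception being Itpr3. These extremes follow largely from choosing genes by their likeness to the members and add no separate evidence. Without the 2 samples farthest from the median their r was between 0.959 and 0.995.

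Other Schwann cell genes ran from close likeness to the members to none. Of 11 with a mean of at least 1 TPM, 4 reached r of 0.9, namely Cldn19 (0.997), Gldn (0.973), Cdh1 (0.992) and Plekha4 (0.965). Gldn encodes gliomedin, the Schwann cell protein that gathers sodium channels at nodes, and had 13.25 TPM in JA replicate 3 and 0.81 TPM in JA replicate 2. Sostdc1 (0.895), Cdh19 (0.885) and Art3 (0.814) came next, and Pou3f1 and Adgrg6, a transcription factor and a receptor that promote Schwann cell myelination, had 0.542 and 0.544. Without the 2 samples farthest from the median Adgrg6 had -0.163 and Art3 0.495. Lgi4, a secreted protein that Schwann cells need for myelination, had r of 0.07, and Ngfr, the p75 neurotrophin receptor, -0.25. Both are also expressed by cells of the central nervous system. The 13 genes of the list found in the table summed to between 51.1 and 169.6 TPM, a 3.32-fold range.

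Oligodendrocyte and shared myelin genes ranged less in the same libraries, both in their sums and in most single genes. The 16 oligodendrocyte genes summed to between 5537 and 6483 TPM, a 1.17-fold range, and the 15 genes of both kinds of myelin to between 36293 and 45479 TPM, a 1.25-fold range. Mobp, an oligodendrocyte myelin protein, was between 1871 and 2331 TPM, and Cldn11, the tight junction protein of central myelin, between 894 and 1091 TPM. Mbp lay between 31362 and 39893 TPM and Cnp, an enzyme of the uncompacted sheath, between 939 and 1330 TPM. Mobp and Mbp are the most abundant genes of their lists and carry much of these sums. Enpp6, of newly formed oligodendrocytes, ranged most, from 15.10 to 40.24 TPM (2.66-fold), with r of 0.34 to the members. Cd9, a membrane protein of both kinds of myelin, lay between 299.8 and 516.2 TPM, was highest in its group in the same 3 samples as the members and had r of 0.76 (0.86 with group means removed, 0.40 without the 2 samples farthest from the median). None of the genes in these lists reached r of 0.9 with the members. Sox10, which both kinds of myelinating cell express, was between 59.7 and 76.1 TPM.

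Some genes of the tissue around nerve and cord moved with the members and others did not. The list of perineurium, nerve sheath and meninges summed to 185, 179 and 418 TPM in JA, 128, 303 and 182 TPM in SNI, and 95.4, 130 and 170 TPM in PLM, so the same 3 samples were highest in their groups. Of its 14 loci that averaged 1 TPM or more (13 genes, with Crabp2 at 2 loci), 3 reached r of 0.9, namely Cldn1 (0.949), Itgb4 (0.941) and Dcn (0.963). Without the 2 samples farthest from the median these were 0.925, 0.855 and 0.928, and Col3a1 went from 0.66 to 0.01. Of the rest, 7 loci had r of 0.20 or less, with 5 below 0 (Fmod, Igf2, Foxc1 and both of Crabp2, from -0.11 to -0.19), Ogn at 0.06 and Slc6a13 at 0.20. Dcn, the collagen-binding proteoglycan decorin of connective tissue, had 33.90, 20.90 and 179.25 TPM in JA, 24.59, 98.36 and 55.01 TPM in SNI, and 16.77, 33.69 and 59.01 TPM in PLM. Among 20 genes of the dystroglycan complex and basal lamina, Lamb1 (0.919) and again Itgb4 reached 0.9, and Lamb1 had 0.802 without those 2 samples. Itgb1, the shared integrin chain, and Sgcb, a sarcoglycan, had the highest levels per length, between 46.2 and 73.7 TPM and between 44.85 and 61.4 TPM. Dag1, dystroglycan itself and the membrane partner of DRP2, lay between 18.99 and 48.77 TPM. Levels of sheath and basal lamina genes are given beside those of the members, and their part in the differences was not tested.

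Cells of the dorsal root ganglion were looked for as well, since ganglia lie on the dorsal roots. Mrgprd, which marks one kind of skin nociceptor, was listed at 0 in all 9 samples, and the nociceptor sodium channels Scn10a and Scn11a reached at most 0.07 and 0.04 TPM. Prph and Calca, which motor neurons or afferent fibres also supply, were highest in SNI replicate 3 (239 TPM) and JA replicate 1 (89.97 TPM) and lowest in JA replicate 3 (64.8 and 14.3 TPM). Of the 16 ganglion genes listed, 7 had a mean of at least 1 TPM. The sum of all 16 was between 149 and 354 TPM in JA, 264 and 398 TPM in SNI and 232 and 310 TPM in PLM, and it was lowest in JA replicate 3, the sample with the highest members. In that sample Prph, Tac1 and Calca, at 64.8, 62.6 and 14.3 TPM, made up most of it. The sum thus follows these genes and does not by itself measure ganglion content. The 11 cord neuron genes were divided within JA. Chat, the enzyme that makes acetylcholine in motor neurons, had 5.36, 2.63 and 1.25 TPM in JA, Slc5a7, the choline transporter of those neurons, 6.96, 2.63 and 1.79 TPM, and Mnx1, their transcription factor, 1.24, 0.90 and 0.16 TPM, so all were lowest in JA replicate 3. Rbfox3, Gad2 and Syt1 were lowest there too, the last 2 by less than 1 TPM below replicate 2, while the other 5 genes were lowest in replicate 2. The summed level was 1301, 853 and 1151 TPM, most of it from Snap25, a protein of synapses. JA replicate 3 also had the lowest astrocyte sum of its group, 3133 TPM against 4695 and 4279 TPM. Hba-a1, a haemoglobin chain, was 5737 TPM there against 2797 and 2805 TPM. The part of any of these in the members' differences was not tested.

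**Figure D2:**
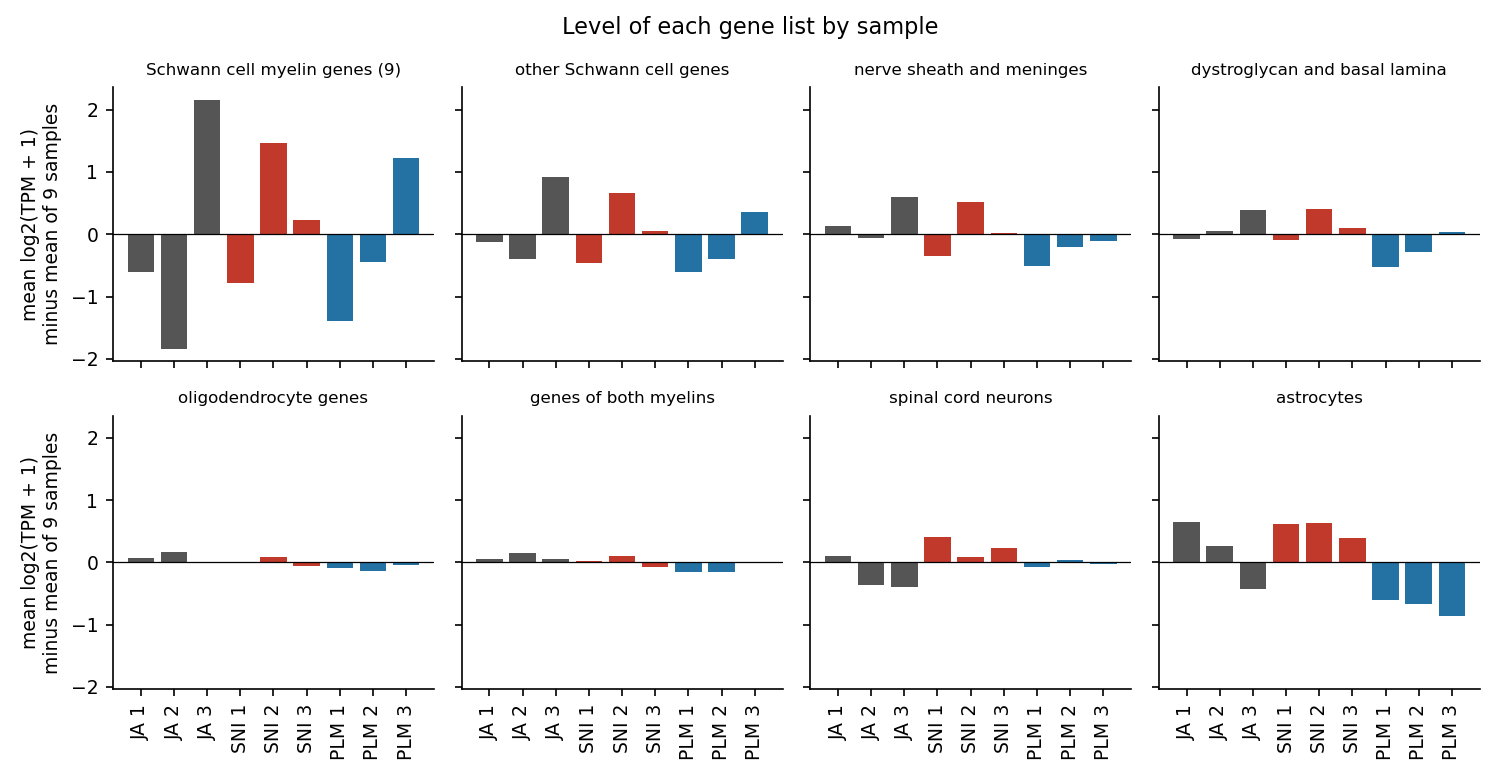
Mean log2(TPM + 1) of each gene list in each sample, minus its mean over the 9 samples. Bars of the 9 genes span from JA replicate 2, the lowest, to JA replicate 3, the highest, a distance of 3.99, while the oligodendrocyte genes span 0.30.

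To ask whether injury changed the members, SNI was compared with JA using limma on log2(TPM + 1), a scale on which changes at low TPM appear smaller than they are. Calls needed both an unadjusted p under 0.05 and a log2 fold change beyond 1 in size, following the study's methods. None of the 9 members was called, and none had an unadjusted p under 0.05 or an adjusted p under 0.05 by limma, where 0.688% of 15557 loci were called, 7.1% had an unadjusted p under 0.05 and 0% passed the adjusted p. The groups overlapped for 9 of 9 members, and 13.8% of all loci had no overlap. The 9 log2 fold changes lay between 0.01 for Dhh and 0.98 for Pmp2 with a median of 0.38, beside 0.12 for all loci. All 9 were above 0 with the deposited TPM, though Dhh and Scn7a were below it, at -0.11 each, when samples were centred on their medians. For Pmp22 the log2 fold change was 0.52 (SE 1.19), with a 95% interval from -2.31 to 3.34 (adjusted p = 0.867, limma). Intervals of the 9 members spanned 2.65 to 6.92 on the log2 scale, so differences of several-fold in either direction fell inside them. P-values here measure the spread between samples that the labels call biological replicates.

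The sign of this comparison turned with the samples that entered it. Without JA replicate 2 all 9 members were below 0 (median -0.50), and without SNI replicate 2 7 of 9 were (median -0.16). Without JA replicate 1, 3 of the 9 turned below 0 (median 0.16). Without JA replicate 3 all 9 stayed above 0, the median was 1.80 and Pmp2 was called, with a log2 fold change of 2.69 (limma, unadjusted p = 0.00897, adjusted p = 0.836). Without SNI replicate 1 the median rose to 1.01.

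PLM was compared with SNI in the same way to see whether the compounds changed the members in injured rats. Again none of the 9 was called or had an unadjusted or adjusted p under 0.05 by limma, where 1.65% of 15474 loci were called, 37.1% had an unadjusted p under 0.05 and 13.9% passed the adjusted p. That last share depended on scaling and samples. Loci past it, 2110 lower and 38 higher, became 106 and 20 with samples centred on their medians and 286 and 7 without SNI replicate 1. The groups overlapped for 9 of 9 members, and 43.5% of loci had no overlap. Log2 fold changes lay between -0.67 for Prx and Ncmap and -0.17 for Scn7a with a median of -0.60, beside -0.21 for all loci. All 9 were below 0 with the deposited TPM, though Scn7a was 0.08 when samples were centred on their medians, a step that moved the median of all loci to 0.04. For Pmp2 the log2 fold change was -0.60 (SE 0.83), with a 95% interval from -2.60 to 1.39 (adjusted p = 0.609, limma). The adjusted p-values of the 9 members lay between 0.460 and 0.867 in this limma fit. Without SNI replicate 2 5 members were above 0 (median 0.02), without PLM replicate 1 6 were (median 0.14) and without PLM replicate 2 2 were (median -0.55). Without PLM replicate 3 the median was -1.25 and the smallest unadjusted p was 0.0546, and without SNI replicate 1 the median was -1.04.

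PLM and JA, which differ in both injury and compounds, were compared last. None of the 9 members was called or had an unadjusted or adjusted p under 0.05 by limma, beside 0.938% of 15349 loci called, 11.8% at an unadjusted p under 0.05 and 0.0195% past the adjusted p. The groups overlapped for 9 of 9 members, and 17.7% of loci had no overlap. With the deposited TPM 3 members were above 0 and 6 below, from -0.59 for Dhh to 0.37 for Pmp2 with a median of -0.12, beside -0.10 for all loci. Prx and Ncmap, at -0.12 and -0.07, moved to 0.0070 and 0.05 when samples were centred on their medians. Without JA replicate 3 all 9 were above 0 (median 1.15), without PLM replicate 1 8 were (median 0.55) and without PLM replicate 2 4 were (median -0.04). Without JA replicate 1, JA replicate 2 or PLM replicate 3 all 9 were below 0, with medians of -0.37, -1.15 and -0.88. The 3 comparisons share samples with each other, so their values are not independent.

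**Figure D3:**
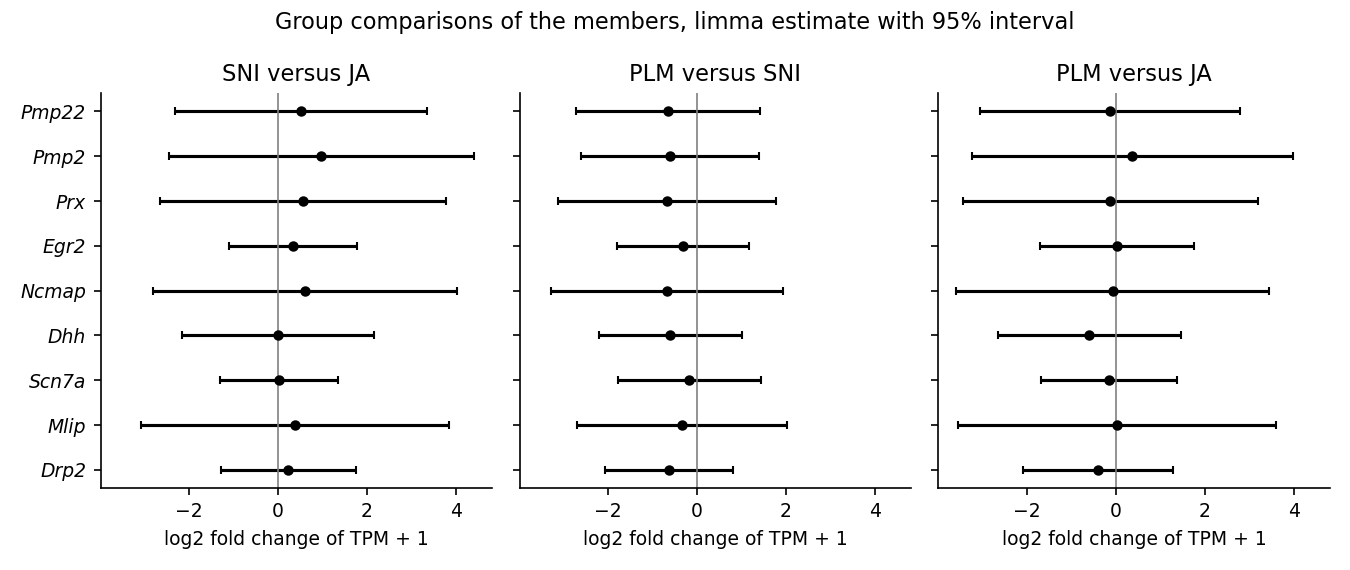
Log2 fold change of TPM + 1 for the 9 genes in each comparison, as the limma estimate (point) with its 95% interval (bar). Every interval crosses 0, and the widest, in PLM versus JA, spans 7.20.

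**Figure D4:**
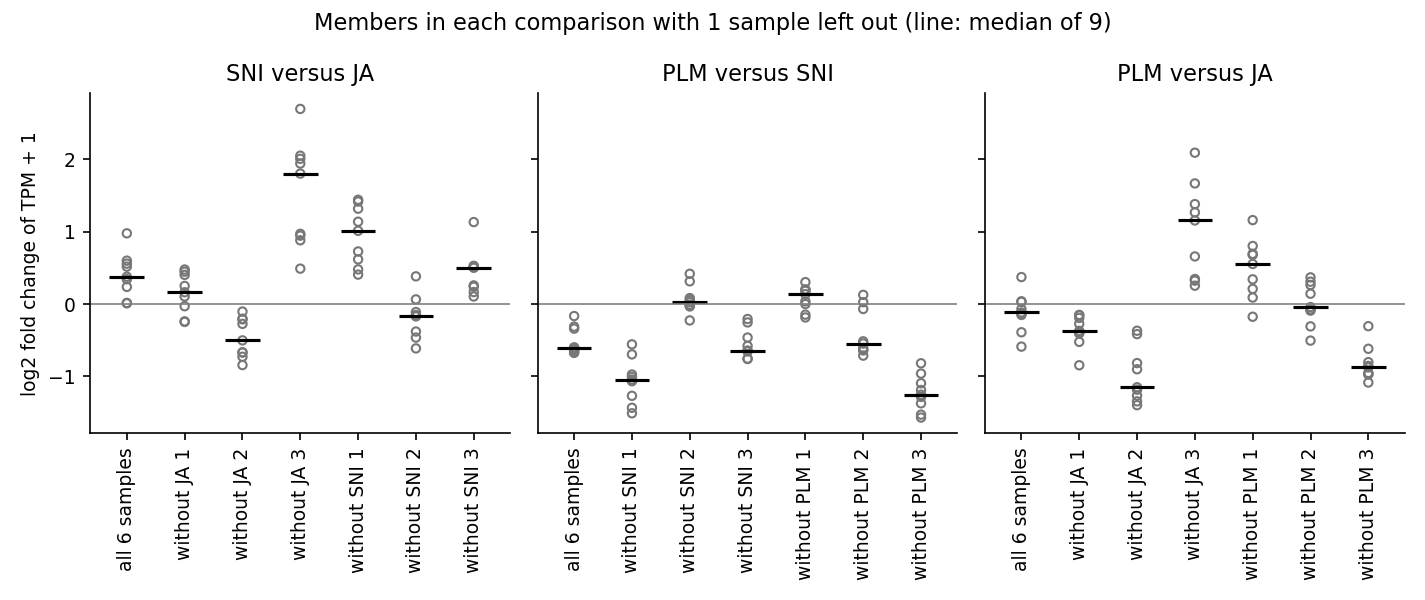
Log2 fold change of TPM + 1 of the 9 genes (circles) and their median (line) in each comparison, with all 6 samples and after dropping each sample by itself. The SNI versus JA median moves from -0.50 without JA replicate 2 to 1.80 without JA replicate 3.

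In the surrounding lists, none of the called genes reached r of 0.9 with the members over the 9 samples. A called gene's own difference between groups enters that r. With group means removed, r was 0.95 for Col1a1 and 0.84 for Col3a1, and between -0.77 and -0.39 for the 8 called astrocyte genes. The other called genes lay between -0.60 for Gpr37l1 and 0.40 for Egr3. Lgi4 was the only one of 11 other Schwann cell genes called in any comparison. The SNI samples averaged 44.7 ± 4.59 TPM and the PLM samples 21.25 ± 1.80 TPM (SD over 3 samples), and the log2 fold change was -1.04 (SE 0.10, adjusted p = 0.00541 by limma), while that of Cldn19 was -0.70 (SE 0.87, adjusted p = 0.570 by limma). With centring on the sample medians Lgi4 had -0.79, under the fold threshold, with an adjusted p of 0.0440 by limma, and it was also short of that threshold with quantile normalization (-0.82), after the mitochondrial protein genes were removed and TPM rescaled (-0.90), and without SNI replicate 2 (-0.96) or PLM replicate 2 (-0.97). Of 15 regulators of peripheral myelination, 2 were called in PLM versus SNI, both lower in PLM, against 1.65% of all loci called. The median log2 fold change of the 15 was -0.18, beside -0.21 for all loci. Gpr37l1, a receptor that astrocytes express, averaged 119 ± 12.8 TPM for SNI and 40.4 ± 2.43 TPM for PLM (adjusted p = 0.00396, limma), and Egr3, a relative of EGR2, was 2.66 ± 1.27 and 0.757 ± 0.458 TPM (adjusted p = 0.0874, limma). Egr3 had a log2 fold change of -1.02 and was not called with median centring (-0.78), with quantile normalization (-0.86), or without SNI replicate 1 (-0.84), SNI replicate 2 (-0.88) or PLM replicate 2 (-0.80). For astrocytes, 8 of 10 genes were called, all lower with the compounds, again beside 1.65% of all loci. Gfap, the intermediate filament of astrocytes, had 588 ± 28.3 TPM for SNI and 241 ± 22.1 TPM for PLM (adjusted p = 0.00396, limma). Gja1, their gap junction protein connexin 43, had 111 ± 14.7 and 38.4 ± 3.29 TPM, and the glutamate transporter Slc1a2 had 40.2 ± 2.37 and 9.86 ± 2.35 TPM (adjusted p = 0.00477 each, limma). Slc1a3, the other glutamate transporter of astrocytes, had 48.3 ± 6.12 and 21.3 ± 0.937 TPM (adjusted p = 0.00526, limma), and its log2 fold change of -1.13 was -0.89 with median centring and -0.92 with quantile normalization, under the fold threshold, as it was by a small margin with the mitochondrial genes removed. Against JA, 2 of the 10 were called, both lower in PLM, where 0.938% of loci were called, and 8 of the 10 had an unadjusted p under 0.05 beside 11.8% of loci. The median log2 fold change of the 10 was -0.92 against JA and -1.24 against SNI. Gfap was 607 ± 202 TPM for JA (adjusted p = 0.276, limma) and Slc1a2 25.9 ± 16.3 TPM (adjusted p = 0.421, limma). Slc1a2 was not called there with median centring, quantile normalization, no filter on low values or the mitochondrial genes removed, or without any single sample except JA replicate 3.

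Of the 14 connective tissue loci tested in PLM versus JA, 4 were called, all lower in PLM, where 0.938% of all loci were called. The median log2 fold change of the 14 was -0.63, beside -0.10 for all loci, and 7 had an unadjusted p under 0.05, beside 11.8%. Col1a1 was 28.85 ± 18.6 TPM in JA and 12.1 ± 5.51 TPM in PLM, and Col3a1, the other fibrillar collagen chain called, was 34.6 ± 18.3 and 15.2 ± 4.18 TPM. Igf2, a growth factor of the meninges, was 47.3 ± 11.9 and 21.8 ± 2.51 TPM, and Ogn, the small proteoglycan osteoglycin, 11.7 ± 3.36 and 4.68 ± 4.07 TPM. Their adjusted p-values in limma lay between 0.254 and 0.417. Without JA replicate 3 the log2 fold changes of Col1a1 and Col3a1 went from -1.11 and -1.05 to -0.63 and -0.66, and neither was called. None of the 4 was called with median centring or quantile normalization, nor were Col1a1 and Ogn in a fit to all 9 samples or Col1a1 with no filter or the mitochondrial genes removed. Without PLM replicate 1 or PLM replicate 2 Col1a1 and Col3a1 were not called, and Igf2 was not called without JA replicate 1, JA replicate 2 or PLM replicate 2. Ogn was called when the sample left out was PLM replicate 2 and lost its call without each of the other 5. Igf2, which was lower in JA replicate 3 than in the other JA samples, did not follow the members. In PLM versus SNI 0 of the 14 loci tested were called by limma and 3 had an unadjusted p under 0.05, beside 37.1% of loci. Their median log2 fold change was -0.54, beside -0.21 for all loci. In SNI versus JA 0 of 15 were called and 0 had an unadjusted p under 0.05, beside 7.1%.

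Calls in the remaining lists were 2 in number. None of the 16 oligodendrocyte genes, the 15 genes of both kinds of myelin or the 20 genes of the dystroglycan complex and basal lamina was called in a comparison by limma. At an adjusted p under 0.05 at most 0, 2 and 4 passed, in PLM versus SNI. With the deposited TPM 13.9% of all loci did, a share that fell with centring and without single samples. In that comparison 6, 5 and 9 of them had an unadjusted p under 0.05, beside 37.1% of loci, and in PLM versus JA 4, 6 and 6 did, beside 11.8%. In SNI against JA, Calcb, a sensory neuropeptide gene of the ganglion list, was 14.4 ± 1.48 TPM against 5.54 ± 4.28 TPM, and Slc5a7 was 9.53 ± 0.872 TPM against 3.79 ± 2.77 TPM, each with an adjusted p of 0.614 by limma, where 0.688% of loci were called. Without JA replicate 3 Slc5a7 was short of the fold threshold, with 0.97. Genes of the repair program that Schwann cells enter after injury, such as Gap43 (95.9 to 118.8 TPM), Sox2 (72.3 to 89.3 TPM) and Jun (28.5 to 55.1 TPM), were called in no comparison by limma, and several are also active in other cells of the cord. Of 7 tested, 2 had an unadjusted p under 0.05 in SNI versus JA, Jun and Shh, beside 7.1% of loci. Shh, the hedgehog ligand sonic hedgehog, also passed the adjusted p in PLM versus SNI, as 1 of 7 genes beside 13.9% of loci, with 4.74 ± 0.751 TPM for SNI and 2.63 ± 0.0929 TPM for PLM (adjusted p = 0.0279, limma). Microglial genes, endothelial and blood genes and the 13 mitochondrial protein genes were likewise not called by limma. In PLM versus SNI 1 of 10, 3 of 8 and 10 of 13 had an unadjusted p under 0.05, beside 37.1% of loci, and in PLM versus JA 2 of 9, 0 of 8 and 1 of 13 did, beside 11.8%. In SNI versus JA 1 gene of each list did, beside 7.1%. Tmem119, a membrane protein of microglia, passed the adjusted p in PLM versus SNI, with 17.2 ± 0.311 TPM for SNI and 12.5 ± 1.51 TPM for PLM (adjusted p = 0.0378, limma). C1qa and C1qb, complement genes of microglia, lay between 130.9 and 193.5 TPM and between 64.0 and 90.3 TPM. Hba-a1 and Hbb, chains of haemoglobin, lay between 2179 and 5789 TPM and between 985.5 and 3464 TPM. At an adjusted p under 0.05 PLM exceeded SNI for 8 of the 13 mitochondrial genes, where 38 of all 15474 loci were higher and 2110 lower. Over all loci the number higher was 1 with a replicate block and 7 without SNI replicate 1, so the 8 did not all hold there. Of the mitochondrial genes, Mt-atp8 averaged 73820 ± 4847 TPM for PLM and 52423 ± 1791 TPM for SNI, and Mt-co1 58309 ± 2989 and 43553 ± 1742 TPM.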

How the data were processed

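RNA was sequenced from 9 spinal cord samples in 3 groups of 3, grouped by their labels. According to the submitters' processing notes and the study's methods, the authors handled reads with CASAVA and fastp 0.19.5, mapped them with HISAT2, quantified transcripts in StringTie and used DESeq2 for differential expression. The notes name GRCh38.p13, a human build, although the identifiers are rat Ensembl ones, and the rat build is not given in the sources used here. The authors deposited 1 table of TPM values with 2 decimals. Read depth cannot be recovered from TPM, which leaves the depth and counting error of each sample unknown, and no count test was run. Loci sharing sequence could have been split by the assembly.

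The 9 genes were matched by name. Groups were compared with limma 3.58.1 in R 4.3.3 (variance trend, no covariate) on log2(TPM + 1), a pseudocount of 1 TPM, for loci averaging 1 TPM or more in the 6 samples compared, with Benjamini-Hochberg adjustment over all loci tested. The code of the fit was tested on simulated data with less spread than most members had, so that test does not bear on the members. Named were every member, the 10 genes with the highest r with the member mean, and from each list the called genes (at most 4 by p) or otherwise the 2 with the highest TPM. Ganglion markers other than Calcb, Sox10, Jun, Shh, Tmem119, Chat, Mnx1, Snap25, Rbfox3, Gad2, Syt1, Dag1, Lamb1, Itgb4, Cldn1, Dcn, Fmod, Foxc1, Crabp2, Slc6a13, Enpp6, Cd9 and the Schwann cell genes other than Lgi4 were named after their values were seen. A few genes of the lists are not reported here. The members and lists were chosen with earlier results of these data known. Alternatives were another pseudocount, other filters, median centring, quantile normalization, TPM rescaled without the mitochondrial protein genes, a fit to all 9 samples, a replicate block, the adjusted threshold and leaving out each sample. Leaving out the 2 samples farthest from the median and a longer promoter window were added after the data were seen.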

Additional observations from a re-analysis of the deposited data

How the results depend on the processing

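TPM without read depth gives no counting error for any member, among them the low Egr2 and Scn7a. With 1 sample left out, the distance between the highest and lowest sample in the members' mean log2 level ran from 1.23 to 3.99 in JA, 1.02 to 2.26 in SNI and 0.95 to 2.62 in PLM, and the number of members called was 0 to 1 in SNI versus JA and 0 in both others. No member was called under any alternative that kept all samples. Genes of the other lists called numbered 2 in SNI versus JA (1 to 8 with a sample left out, 0 at the adjusted threshold), 11 in PLM versus SNI (32 at the adjusted threshold) and 6 in PLM versus JA (3 to 11 with a sample left out, 2 with median centring, 2 with quantile normalization, 0 at the adjusted threshold). The causes were not tested.

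With all samples kept, the log2 fold change in SNI versus JA turned for Dhh to -0.11 with median centring, -0.10 with quantile normalization and -0.026 without the mitochondrial genes, and for Scn7a to -0.022 with a pseudocount of 0.1, -0.11 with centring, -0.092 with quantile normalization and -0.041 without the mitochondrial genes. In PLM versus SNI it turned for Scn7a to 0.081 with centring and 0.016 with quantile normalization. In PLM versus JA it turned for Prx to 0.0070 and 0.031 under those settings, and for Ncmap to 0.054 and 0.078, with 0.027 at a pseudocount of 0.1 and 0.014 without the mitochondrial genes.

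With 1 sample left out, log2 fold changes in SNI versus JA ran from -0.50 to 1.80 for Pmp22, -0.21 to 2.69 for Pmp2, -0.67 to 1.94 for Prx, -0.10 to 0.97 for Egr2, -0.73 to 2.05 for Ncmap, -0.67 to 0.94 for Dhh, -0.46 to 0.49 for Scn7a, -0.84 to 2.01 for Mlip and -0.27 to 0.88 for Drp2. In PLM versus SNI they ran from -1.37 to 0.037 for Pmp22, -1.28 to 0.18 for Pmp2, -1.53 to 0.14 for Prx, -0.96 to 0.025 for Egr2, -1.57 to 0.20 for Ncmap, -1.09 to 0.025 for Dhh, -0.82 to 0.31 for Scn7a, -1.25 to 0.42 for Mlip and -1.19 to -0.15 for Drp2, which did not turn. In PLM versus JA they ran from -1.15 to 1.15 for Pmp22, -0.82 to 2.09 for Pmp2, -1.34 to 1.27 for Prx, -0.62 to 0.66 for Egr2, -1.40 to 1.38 for Ncmap, -1.27 to 0.35 for Dhh, -0.80 to 0.32 for Scn7a, -1.18 to 1.67 for Mlip and -0.95 to 0.25 for Drp2.

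The groups share replicate numbers, but deviations of same-numbered samples had correlations from -0.05 to 0.13, so the numbers were not taken as pairs. With a replicate block 0 members were called in each comparison, the other lists gave 2, 11 and 7 calls, and loci past the adjusted threshold in PLM versus SNI fell from 2110 lower and 38 higher to 151 and 1. These loci also fell to 106 and 20 with median centring and 132 and 23 with quantile normalization. They were 267 and 16 without the mitochondrial genes and 463 and 8 in the fit to all 9 samples. With 1 sample left out the lower loci ran from 264 to 1456. They did not fall with a pseudocount of 0.1 (2177 and 37).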
